A study of Mus musculus with 10 samples.

Results

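The mouse mitochondrial genome encodes 37 genes, and all 37 were measured in NIH3T3 cells with a mutated *Lin37* gene. These cells are immortalized fibroblasts of the mouse. *Lin37* encodes a subunit of MuvB, the core of the DREAM complex that represses cell cycle genes in resting cells. The members were the entries of the RPKM table whose GENCODE M21 symbol begins with mt-. They were 13 mRNA, 2 rRNA and 22 tRNA genes, 37 of 45232 entries. Of the 10 libraries, 4 were of a clone with InDels at exon 4 of *Lin37* and 6 of a clone with InDels at exon 6, so that each mutation was represented by a single clone. Both groups compared carried the mutation. The cells of the KO group held an episome expressing luciferase, and those of the rescue group held one expressing wild-type Lin37, from a doxycycline-induced pRTS vector. All cells had been kept for 60 h in medium with 0% FCS. Each clone had 2 biological replicates per group, which made 4 KO and 4 rescue replicates. In the exon 6 clone, library 3 was a technical replicate of library 2, and their mean was used as 1 replicate.

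Mitochondrial DNA is a small circular genome present in many copies per cell, and it is copied and transcribed independently of the nuclear chromosomes. Both of its strands are transcribed into long polycistronic RNAs, from which most mRNAs and rRNAs are released when the tRNAs lying between them are cut out. The mRNAs encode core subunits of the respiratory chain and of ATP synthase, while the rRNAs and tRNAs serve the mitochondrial ribosome. Every other mitochondrial protein, including the polymerase and the ribosomal proteins, is encoded in the nucleus.

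The libraries stood apart from each other in ways that touch every value below. The deposited RPKM had to be divided by factors between 0.324 and 2.70, which was the median ratio of a library to the geometric mean of all libraries over 8523 genes. These factors ranged from 0.601 to 2.70 in KO and from 0.324 to 1.73 in rescue libraries. The satellite entry Gm10800 took between 4798 and 153176 deposited RPKM. Gene entries of known length accounted for 26.9% to 73.2% of the total behind the RPKM. *Lin37* itself averaged 0.315 ± 0.0681 rescaled RPKM in KO and 3.58 ± 1.46 in rescue (SD, n = 4 each). All 10 fibroblast marker genes were detected in every replicate, with *Col1a1* between 98.7 and 324 and *Vim* between 31.1 and 50.9 rescaled RPKM. All 8 markers of epithelial, blood, endothelial and muscle cells reached at most 0.471 rescaled RPKM. The number of reads per library is not given, and read counts could not be recovered from the low values, of which 2.53% to 36.0% per library were whole multiples of the value of 1 read (tolerance 0.02), so no counting error is attached to any value.

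Mitochondrial genes took 0.189% to 1.50% of the library total, and 0.703% to 2.23% of the part assigned to gene entries of known length. Levels are given from here on as rescaled RPKM, the deposited value divided by the factor of its library, and are per length. Replicate values are always listed for the exon 4 clone first (replicates 1 and 2) and then for the exon 6 clone (replicates 1 and 2). Changes were tested with limma over all genes, with Benjamini-Hochberg adjustment and clone as a covariate, and a gene was called at an adjusted p under 0.05.

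The tRNA genes are shown first, because their sequences set how they can be measured. They are 59 to 75 bases long, which is shorter than a sequencing read, and 8 of the 22 lie on the minus strand. The genes with the highest levels were *mt-Ts1* (chrM:6870-6938, minus strand), which carries serine, and *mt-Te* (chrM:14071-14139, minus strand), which carries glutamate. Among the tRNAs above 10 rescaled RPKM, those with the widest spread relative to their mean were *mt-Tl2* (chrM:11671-11741, plus strand, leucine) and *mt-Tm* (chrM:3845-3913, plus strand, methionine). The lowest of all 22 was *mt-Tf* (chrM:1-68, plus strand, phenylalanine). *mt-Tg* (chrM:9391-9458, plus strand, glycine) is included because it was the only member called between the clones. The sequences are of GENCODE M21 transcripts on GRCm38, written 5′ to 3′ as DNA, with the anticodon in capitals.
mt-Ts1: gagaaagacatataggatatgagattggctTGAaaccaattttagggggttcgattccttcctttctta
mt-Te: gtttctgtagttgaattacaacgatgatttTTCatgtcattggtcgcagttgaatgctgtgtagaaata
mt-Tl2: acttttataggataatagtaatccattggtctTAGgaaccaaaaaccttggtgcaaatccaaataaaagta
mt-Tm: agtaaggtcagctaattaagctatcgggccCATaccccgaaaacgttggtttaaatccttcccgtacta
mt-Tg: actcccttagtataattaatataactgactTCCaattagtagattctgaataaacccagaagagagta
mt-Tf: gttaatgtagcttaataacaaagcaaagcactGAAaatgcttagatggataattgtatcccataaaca
The anticodon was placed by a loop of 7 bases closed by at least 4 of 5 stem pairs. The 2 highest tRNA genes adjoin protein-coding genes. *mt-Ts1* overlaps the 3′ end of *mt-Co1* by 3 bases on the opposite strand, and *mt-Te* lies 5 bases from *mt-Cytb* on the opposite strand and directly beside *mt-Nd6* on the same strand. Whether reads were counted by strand is not stated, so reads of these genes and of the transcripts opposite them cannot be told apart.

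The member genes spanned a wide range of levels, and *mt-Co1* and *mt-Cytb* were the highest mRNAs in every replicate. Among the mRNAs, *mt-Co1* was highest at 1239 ± 361 rescaled RPKM (SD, n = 8) and *mt-Nd3* lowest at 78.0 ± 17.6. *mt-Co1* exceeded *mt-Cytb* (715 ± 236), *mt-Cytb* exceeded *mt-Nd1* (507 ± 138) and *mt-Nd1* exceeded *mt-Nd6* (387 ± 135) in 8 of 8 replicates each. In rescue exon 4 replicate 2, however, *mt-Nd2* at 305 lay above *mt-Nd1* at 288. The following genes could not be put in order beyond their spread. *mt-Nd6* was above *mt-Nd2* (382 ± 96.1) in 3 of 8 replicates, *mt-Atp6* (336 ± 48.9) above *mt-Nd5* (319 ± 76.4) in 5 of 8, and *mt-Nd5* above *mt-Co2* (306 ± 57.4) in 4 of 8. Below them, *mt-Nd4* stood at 264 ± 65.7, *mt-Co3* at 221 ± 28.8, *mt-Nd4l* at 155 ± 44.8 and *mt-Atp8* at 120 ± 27.5. As shares of the summed mRNA level, *mt-Co1* took 20.5% to 29.1% of it in a replicate, while *mt-Nd4* kept between 4.98% and 5.48%. The rRNA genes averaged 424 (*mt-Rnr1*) and 417 (*mt-Rnr2*), at the level of the middle mRNAs, with coefficients of variation of 32.2% and 40.0% over the 8 replicates. The labels describe the RNA as depleted of rRNA and the library kit as one for human samples, so these levels are of the rRNA that remained.

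Over the 10 libraries, the summed rescaled RPKM of the 13 mRNAs ranged from 3220 in KO exon 6 library 3 to 7010 in rescue exon 6 library 1. That of the rRNAs ranged from 515 in KO exon 4 library 1 to 2054 in rescue exon 6 library 2. For the tRNAs the sums were between 155 and 367, in KO exon 6 library 3 and rescue exon 4 library 1. The library highest in mRNA was thus not the one highest in rRNA or tRNA.

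**Figure D1:**
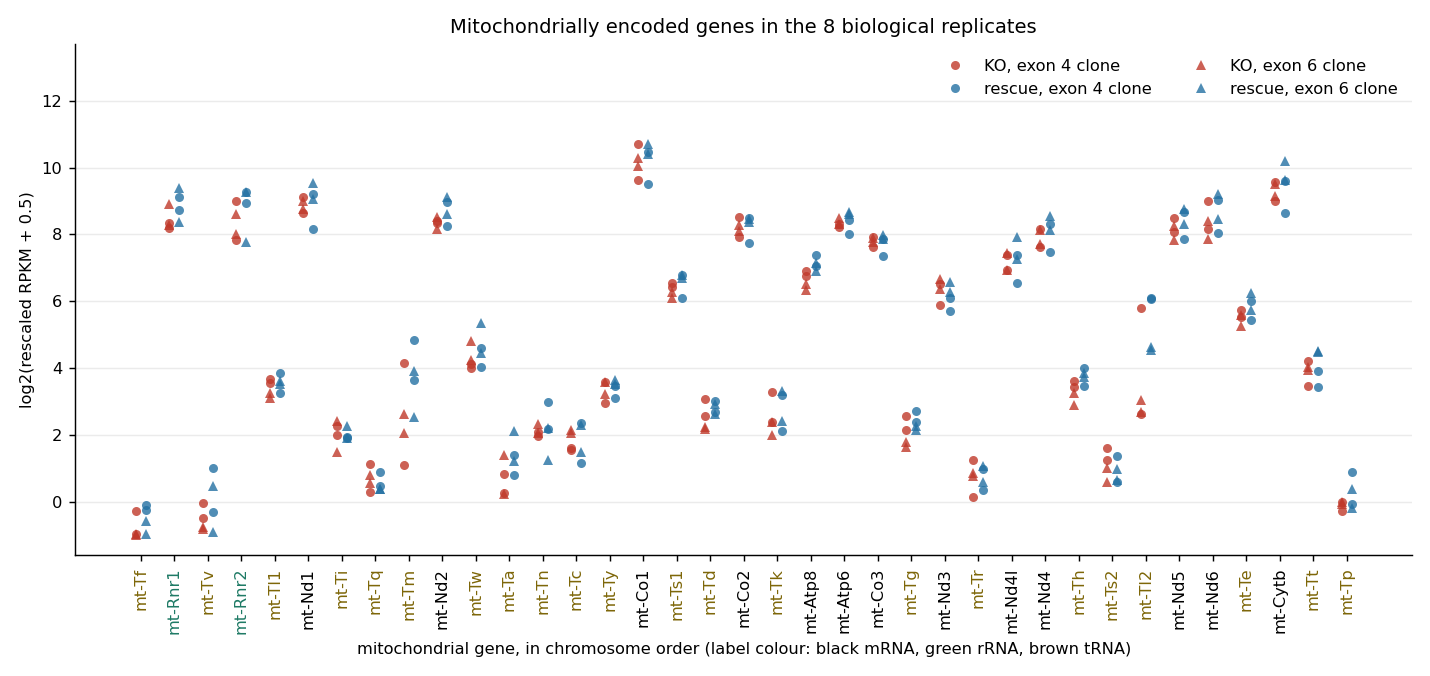
Level of each of the 37 mitochondrial genes, in chromosome order along the x axis, as log2(rescaled RPKM + 0.5) in the 8 biological replicates (colour, KO or rescue; symbol, clone). The mRNA and rRNA genes form an upper band, most tRNA genes lie far below it, and the replicates of *mt-Tl2* and *mt-Tm* are spread the widest among the tRNAs above 10 rescaled RPKM.

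The central comparison, KO against rescue over both clones, asks whether the starved cells differ in mitochondrial transcripts when Lin37 is missing. No member passed the test. Of 37 members, all passed the minimum level and 0 were called, against 1.69% of all 16866 genes tested. With an unadjusted p under 0.05 there were 5, *mt-Atp8*, *mt-Tl2*, *mt-Th*, *mt-Tg* and *mt-Ta*, beside 1482 of the 16866 genes. The median log2 change was -0.12 over the 13 mRNAs, -0.46 over the 2 rRNAs and -0.28 over the 22 tRNAs, against -0.03 over all genes. The fitted value was lower in KO for 30 members and higher for 7. The scaling decided these signs. With the RPKM as deposited, the medians were 0.82, 0.69 and 0.70 beside a median of 0.64 over all genes, and with rescaling to the summed nuclear protein-coding genes they were 1.45, 1.36 and 1.23 beside 1.10. Of 36 members tested 29 were then called, all higher, but so were 74.8% of all genes. A direction of the mitochondrial genes as a set is therefore not given. In bulk RNA, fewer cells or mitochondrial genomes and less RNA from each cannot be told apart.

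**Figure D2:**
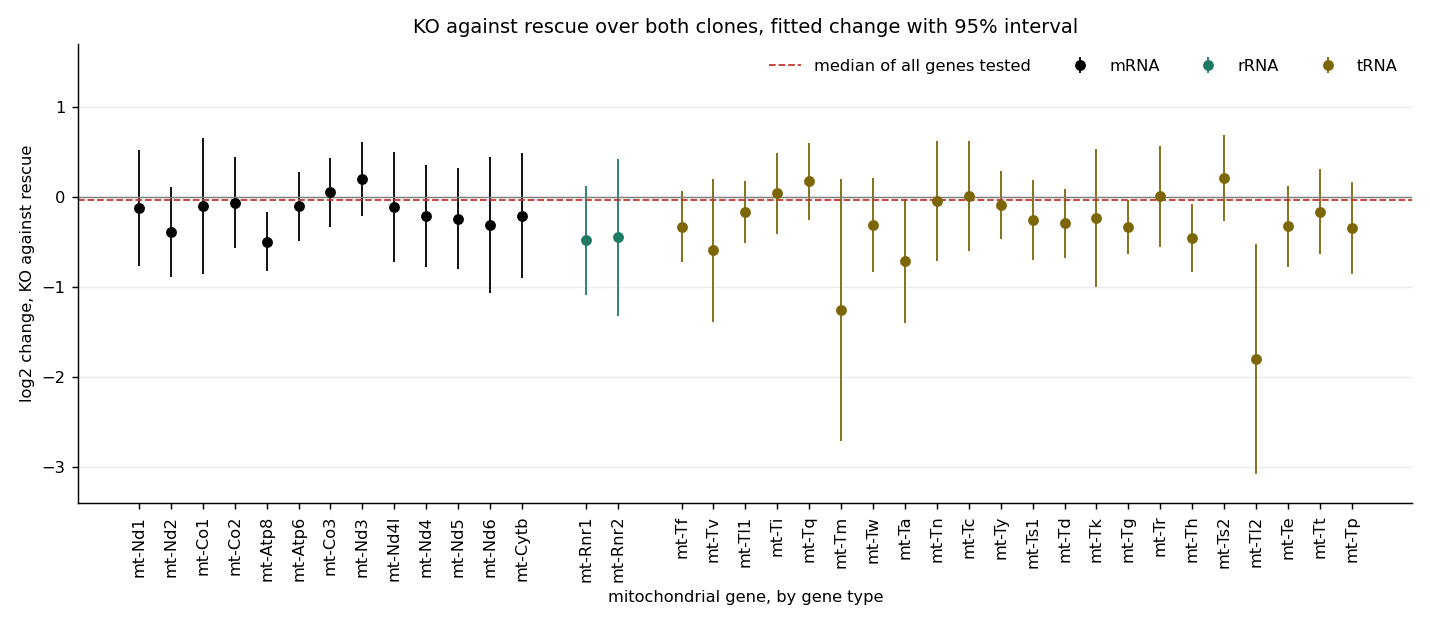
Fitted log2 change of each mitochondrial gene, KO against rescue over both clones, with its 95% interval (points and bars; 4 KO and 4 rescue replicates), grouped by gene type, and the median of all genes tested (dashed). The interval includes 0 for all but 5 members, and none of these 5 passed the adjustment over all genes.

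The subunits of complex I, the NADH dehydrogenase that feeds electrons into the chain, are encoded by 7 members. *mt-Nd1* (chrM:2751-3707) had 553, 395, 515 and 430.4 in KO and 590.2, 288, 744 and 538 in rescue replicates, and the groups overlapped (log2 change of -0.12, SE 0.28, 95% interval -0.77 to 0.52, limma's adjusted p = 0.938). For *mt-Nd2* (chrM:3914-4951) the values were 321, 337, 363 and 288 in KO and 497, 305, 557 and 390.4 in rescue, where the KO replicates lay close together and 1 rescue replicate fell among them (log2 change of -0.38, SE 0.22, 95% interval -0.88 to 0.12, limma's adjusted p = 0.692). *mt-Nd3* (chrM:9459-9806) was measured at 90.3, 59.0, 101 and 82.7 in KO and 67.8, 51.6, 95.5 and 76.3 in rescue (log2 change of 0.20, SE 0.18, 95% interval -0.22 to 0.61, limma's adjusted p = 0.810). It had the largest positive change among the mRNAs, and its groups overlapped. *mt-Nd4* (chrM:10167-11544) showed 285, 195, 277 and 209 in KO and 317, 178, 371 and 278 in rescue (log2 change of -0.21, SE 0.25, 95% interval -0.77 to 0.35, limma's adjusted p = 0.863). *mt-Nd4l* (chrM:9877-10173), which shares 7 bases with *mt-Nd4*, showed 168, 121, 172 and 121 in KO and 167, 93.2, 240.5 and 153 in rescue (log2 change of -0.11, SE 0.27, 95% interval -0.72 to 0.50, limma's adjusted p = 0.942). In all of these genes the lowest rescue value was that of exon 4 replicate 2. The KO values of *mt-Nd5* (chrM:11742-13565) were 358, 271, 305 and 228 and its rescue values 407, 232, 433 and 320.0 (log2 change of -0.24, SE 0.25, 95% interval -0.80 to 0.32, limma's adjusted p = 0.839). *mt-Nd6* (chrM:13552-14070) is the only protein-coding member on the minus strand and overlaps *mt-Nd5* by 14 bases, and it gave 515, 289, 338 and 234 in KO and 518, 264, 590.2 and 348 in rescue (log2 change of -0.31, SE 0.33, 95% interval -1.07 to 0.44, limma's adjusted p = 0.845). The replicates of *mt-Nd6* spread more widely than those of *mt-Nd5*, and for both genes the groups overlapped.

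Complex III, which passes electrons on to cytochrome c, has 1 subunit encoded here. *mt-Cytb* (chrM:14145-15288) was at 755, 512, 734 and 572 in KO and 776, 398, 1178 and 793 in rescue replicates (log2 change of -0.21, SE 0.30, 95% interval -0.90 to 0.49, limma's adjusted p = 0.898). Its highest and its lowest value were both in rescue replicates.

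Complex IV, the cytochrome c oxidase that hands electrons to oxygen, has its 3 core subunits encoded here. *mt-Co1* (chrM:5328-6872) measured 1665, 786, 1260 and 1056 in KO and 1411, 723, 1670 and 1345 in rescue (log2 change of -0.10, SE 0.33, 95% interval -0.86 to 0.66, limma's adjusted p = 0.958). In either group, exon 4 replicate 2 was the lowest and the range was more than the difference between the groups. The values of *mt-Co2* (chrM:7013-7696) were 367, 243, 309 and 273 in KO and 359.6, 213, 353 and 330.0 in rescue (log2 change of -0.06, SE 0.22, 95% interval -0.57 to 0.45, limma's adjusted p = 0.961). Those of *mt-Co3* (chrM:8607-9390) were 243, 197, 237 and 219 in KO and 229.9, 162, 231 and 250.1 in rescue (log2 change of 0.05, SE 0.17, 95% interval -0.34 to 0.44, limma's adjusted p = 0.958). For both genes, 1 rescue replicate, exon 4 replicate 2, lay below every KO replicate, and the groups overlapped.

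ATP synthase, which makes ATP from the proton gradient, has 2 membrane subunits encoded here, whose genes overlap by 43 bases. *mt-Atp8* (chrM:7766-7969) had 107, 119, 90.8 and 80.7 in KO and 166, 131, 142 and 120.4 in rescue replicates. It was the only member of 37 whose KO and rescue replicates did not overlap, with all KO values below all rescue values, and this held for 4.51% of all genes tested. Its change did not pass the test (log2 change of -0.50, SE 0.14, 95% interval -0.82 to -0.17, limma's adjusted p = 0.226). The overlapping *mt-Atp6* (chrM:7927-8607) was at 298, 317, 356 and 314 in KO and 348, 257, 405 and 391 in rescue, with overlapping groups (log2 change of -0.10, SE 0.17, 95% interval -0.49 to 0.28, limma's adjusted p = 0.907). The highest KO and lowest rescue value of *mt-Atp8*, 119 and 120, were nearly equal.

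The rRNAs of the small and large mitochondrial ribosomal subunits are encoded by *mt-Rnr1* and *mt-Rnr2*. *mt-Rnr1* (chrM:70-1024) was at 289, 324, 313 and 476 in KO and 426, 559, 333 and 669.7 in rescue replicates (log2 change of -0.48, SE 0.27, 95% interval -1.09 to 0.13, limma's adjusted p = 0.679). *mt-Rnr2* (chrM:1094-2675) was at 226, 510.2, 259.9 and 394 in KO and 486, 618, 220.3 and 619 in rescue replicates (log2 change of -0.45, SE 0.38, 95% interval -1.32 to 0.43, limma's adjusted p = 0.794). For both genes, the highest values were those of replicate 2 of the rescue groups, and the groups overlapped. Technical libraries of the same RNA differed as much or more, except for *mt-Rnr1* in KO. In the rescue group of the exon 6 clone, *mt-Rnr2* was at 1036 in library 2 and 202 in library 3, a log2 difference of -2.36, and *mt-Rnr1* at 1018 and 321, while the median difference of the 13 mRNAs between these libraries was -0.00. In the KO group, *mt-Rnr2* was at 552 in library 2 and 236 in library 3, *mt-Rnr1* at 505 and 446, and the median difference of the mRNAs was -0.75. Of the 37 members, 9 differed by more than 1 on the log2 scale between the KO libraries and 10 between the rescue libraries.

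Set against the mRNAs of the same library, the rRNAs varied widely between libraries, and *mt-Rnr2* was highest where the scaling factor was lowest. The ratio of *mt-Rnr2* to the geometric mean of the 13 mRNAs was 3.25 and 2.94 in the libraries with the lowest factors (rescue exon 6 library 2 and rescue exon 4 library 2), and between 0.542 and 1.24 in the 5 libraries with the highest factors. *mt-Rnr1* followed this only in part, with ratios of 3.20 and 2.66 in the same libraries but also 2.35 in KO exon 6 library 3, which had the highest factor. *mt-Tl2* and *mt-Tm* varied more. Their ratios ranged from 0.0171 to 0.315 and from 0.00496 to 0.135. The ratio of *mt-Ts1* stayed between 0.238 and 0.383. Rescaled Gm10800 satellite signal differed between the libraries too, from 1778 in the library with the highest factor, KO exon 6 library 3, to 473211 in the one with the lowest, rescue exon 6 library 2. Rn7sk, an abundant nuclear RNA, stayed between 3701 and 9201. The part of these library properties in the values of the rRNA and tRNA genes was not tested.

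**Figure D3:**
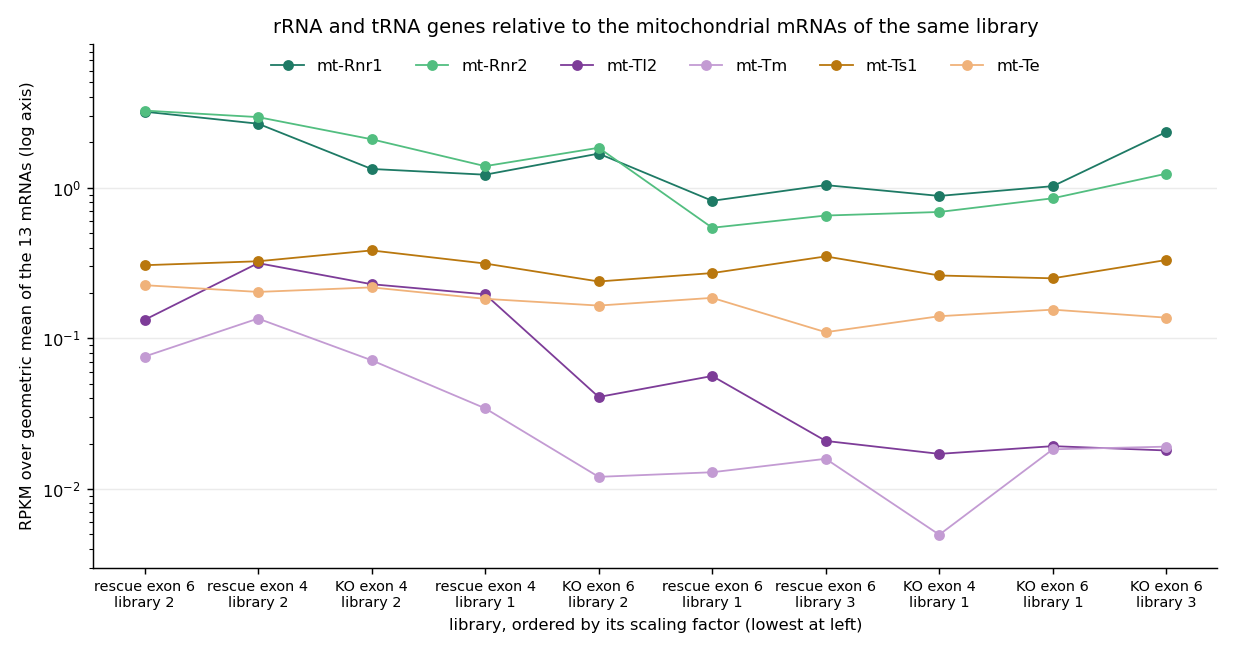
Ratio of 2 rRNA and 4 tRNA genes to the geometric mean of the 13 mitochondrial mRNAs of the same library (log axis), for the 10 libraries ordered by their scaling factor along the x axis; lines join the values of 1 gene. *mt-Tl2* spans 0.0171 to 0.315 and *mt-Rnr2* 0.542 to 3.25 with their highest values among the libraries at the left, while *mt-Ts1* stays between 0.238 and 0.383.

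The 22 tRNA genes ranged in mean level from 0.163 for *mt-Tf* to 89.1 for *mt-Ts1*. The 8 genes on the minus strand made up 56.1% of the summed tRNA level, most of it from *mt-Ts1* (30.8% of the sum) and *mt-Te* (18.1%). *mt-Ts1* was at 85.7, 93.2, 76.5 and 67.2 in KO and 109.6, 68.1, 110.2 and 103 in rescue replicates (log2 change of -0.26, SE 0.19, 95% interval -0.70 to 0.18, limma's adjusted p = 0.775). *mt-Te* was at 46.0, 53.0, 47.4 and 37.8 in KO and 63.9, 42.6, 75.4 and 52.8 in rescue replicates (log2 change of -0.33, SE 0.20, 95% interval -0.77 to 0.12, limma's adjusted p = 0.704). For both, the rescue replicates held the highest and the KO replicates the lowest value, and the groups overlapped. *mt-Tw* (chrM:4950-5016), the tryptophan tRNA, had 17.0, 15.4, 27.7 and 18.3 in KO and 23.7, 15.9, 40.6 and 21.2 in rescue (log2 change of -0.31, SE 0.23, 95% interval -0.84 to 0.21, limma's adjusted p = 0.766). *mt-Tt* (chrM:15289-15355), the threonine tRNA, had 18.1, 10.5, 15.9 and 14.8 in KO and 14.5, 10.3, 22.2 and 21.6 in rescue (log2 change of -0.16, SE 0.21, 95% interval -0.64 to 0.31, limma's adjusted p = 0.876). Neither separated the groups.

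*mt-Tl2* had the largest fitted change of all members. Its values were 5.60, 55.6, 5.87 and 7.82 in KO and 68.4, 66.2, 22.8 and 24.3 in rescue replicates. Of the KO replicates, 3 lay below all rescue replicates and the other, exon 4 replicate 2, lay above both rescue replicates of the exon 6 clone. The change did not pass the test over both clones (log2 change of -1.80, SE 0.56, 95% interval -3.08 to -0.52, limma's adjusted p = 0.281). Without KO exon 4 replicate 2, the replicate that went against the other KO replicates, the log2 change was -2.42. That fit left 1 KO sample in the exon 4 clone. Within the exon 6 clone alone, *mt-Tl2* was the only member called (log2 change of -1.72, SE 0.16, limma's adjusted p = 0.0172). That call rested on the mean of technical libraries that lay far apart, 12.2 and 3.42 in KO and 42.2 and 6.42 in rescue. It was lost with library 3 of each group left out (adjusted p = 0.311, limma) and with library 2 left out (adjusted p = 0.525, limma). In these fits 0.463% and 0.903% of all genes were called within the exon 6 clone, against 1.30% with both libraries. *mt-Tm* had 1.63, 17.4, 5.60 and 3.62 in KO and 12.0, 28.4, 5.24 and 14.5 in rescue, with 1 KO replicate among the highest values (log2 change of -1.26, SE 0.64, 95% interval -2.71 to 0.20, limma's adjusted p = 0.638). As for *mt-Rnr2*, the highest values of both tRNAs relative to the mRNAs were in libraries with low scaling factors, and the part of this in their changes was not tested.

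The remaining tRNA genes gave no call either. Their fitted log2 changes lay between -0.71 (*mt-Ta*, alanine, adjusted p = 0.547 in limma) and 0.21 (*mt-Ts2*, serine, adjusted p = 0.828 in limma). *mt-Tf* and *mt-Tv* were at or under 0.433 and 1.51 in every replicate, and they were listed at 0 in KO exon 6 library 1 (*mt-Tf*) and library 3 (*mt-Tv*).

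The mRNAs did not move one way in every replicate pair. The median log2 difference of the 13 mRNAs between same-numbered KO and rescue replicates was -0.04 and 0.19 in the exon 4 clone and -0.48 and -0.35 in the exon 6 clone, so that only the pairs of the exon 4 clone differed in sign. In the exon 4 clone, 0 of 37 members were called, where 0% of 18751 genes were. An unadjusted p under 0.05 was found for 0 of the 37 and for 768 of the 18751 genes. In the exon 6 clone, 1 of the 36 members tested was called, *mt-Tl2*, against 1.30% of 15301 genes. Of the 36, 9 had an unadjusted p under 0.05, beside 1811 of the 15301 genes, and 32 were fitted lower in KO. *mt-Tf* was under the minimum level there. An interaction term in limma, for whether the KO effect depends on the clone, called 0 of 37 members and 0% of 16866 genes. Its unadjusted p was under 0.05 for 0 of the 37 and for 685 of the 16866 genes. All 13 mRNAs had a more negative change in the exon 6 clone, by 0.41 on the log2 scale at the median and by 0.20 to 0.75, with standard errors of 0.29 to 0.68. The interval for *mt-Co1*, for example, ran from -2.15 to 1.04. Over all members this direction depended on the scaling. The change was more negative in exon 6 for 27 of 37 members as reported and 28 of 36 with the RPKM as deposited. It was so for 17 of 37 with quantile normalization and 1 of 36 with the nuclear protein-coding sum.

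The level of the mitochondrial genes in the exon 6 clone was compared with that in the exon 4 clone, over KO and rescue together. Clone and any batch in which a clone was handled cannot be told apart. Of the 37 members, 6 had an unadjusted p under 0.05, beside 5211 of the 16866 genes tested. *mt-Tg*, the glycine tRNA, was the only member called, 1 of 37, against 13.6% of all genes. It was at 3.94, 5.39, 6.03 and 4.75 in the exon 4 clone (KO replicates 1 and 2, rescue replicates 1 and 2) and at 2.96, 2.62, 4.27 and 3.90 in the exon 6 clone. The clones overlapped, since KO exon 4 replicate 1 lay below rescue exon 6 replicate 1. The log2 difference was -0.50 with an SE of 0.13 and limma's adjusted p = 0.0408. Its sign depended on the scaling, with a difference of 0.23 with the RPKM as deposited and 0.26 with the nuclear protein-coding sum, and the call was kept in 8 of 22 alternatives. This call was lost without KO exon 4 replicate 2 (adjusted p = 0.0775 in limma), without rescue exon 4 replicate 1 (adjusted p = 0.0923) and without any 1 of the 4 exon 6 replicates (adjusted p from 0.0659 to 0.128). Of the mRNAs, 11 had a higher and 2 a lower fitted level in the exon 6 clone, with a median difference of 0.23 beside -0.05 over all genes, and none was called. Leaving out KO exon 4 replicate 1 raised the number of members called from 1 to 5, *mt-Nd3* and *mt-Tt* higher and *mt-Tf*, *mt-Tg* and *mt-Tl2* lower. The share of all genes called rose as well, from 13.6% to 17.9%.

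Several mRNA members share their sequence with the nuclear genome. Stretches of mitochondrial DNA have been inserted into nuclear chromosomes during evolution, and where such a copy is recent its reads cannot be assigned. Copies were chosen by sequence, as nuclear genes with at least 50% of their 31-base stretches in a mitochondrial gene. In all, 7 were found, all in a row on the minus strand of chromosome 1 (GRCm38, chr1:24611535-24616197). Only annotated transcripts were searched. Copies without an annotation, such as any of tRNA genes or *mt-Atp8* in the gaps between these entries, could therefore not be found. Over the aligned bases, 6 of them were 100% identical to *mt-Nd4*, *mt-Nd4l*, *mt-Nd3*, *mt-Co3*, *mt-Atp6* or *mt-Co2*, and Gm29216 was 99.8% identical to *mt-Co1* over 483 bases. The edge of the copy of *mt-Co1* shows how the inserted stretch begins. The windows below cover positions 1054 to 1114 of *mt-Co1* and the matching start of Gm29216, and capitals mark the 48 bases that are shared without a break from position 1067 on.
mt-Co1: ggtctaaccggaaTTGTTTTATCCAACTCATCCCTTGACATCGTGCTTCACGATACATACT
Gm29216: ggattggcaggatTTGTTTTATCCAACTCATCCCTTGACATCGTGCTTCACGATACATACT
To the left of the capitals the copy departs from the mitochondrial gene, and to their right no base of the window tells them apart.

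The deposited values of the copies followed those of their mitochondrial genes. The ratio of copy to mitochondrial gene lay between 0.975 and 0.993 for Gm28437 and *mt-Co3* over the 10 libraries, between 1.01 and 1.03 for Gm28661 and *mt-Co2*, and between 0.932 and 0.942 for Gm10925 and *mt-Atp6*. It was lower for the genes that are copied only in part, between 0.568 and 0.691 for Gm28439 and *mt-Nd4* and between 0.191 and 0.363 for Gm29216 and *mt-Co1*. The levels of these mRNAs may thus be split with a nuclear entry or repeated in it, which cannot be told apart from RPKM. Of the stretches of *mt-Co2*, 100% occur in a nuclear gene, and of those of *mt-Nd1* and *mt-Rnr1* 0%, so the order of levels given above compares genes of unequal mappability. The level of each copy was added to that of its mitochondrial gene, without weighting by length. Among the genes copied nearly in full, *mt-Atp6* then reached 650 ± 94.9, *mt-Co2* 616 ± 117 and *mt-Co3* 439 ± 58.0. *mt-Nd4l* reached 303 ± 89.3 and *mt-Nd3* 161 ± 36.8. With these sums *mt-Atp6* and *mt-Co2* stand above *mt-Nd1* (507 ± 138). *mt-Co1* is still highest, at 1239 ± 361 even without its copy. The copies of *mt-Co1* and *mt-Nd4* are shorter than the genes, with 492 against 1545 and 876 against 1378 bases. Their plain sums, 1554 ± 399 and 430 ± 104, are larger than sums weighted by length would be. The place of *mt-Nd4* in the order is therefore not given. None of the 7 copies was called for KO against rescue, beside 1.69% of all genes, or between the clones, beside 13.6% (0 of 7 each in limma).

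**Figure D4:**
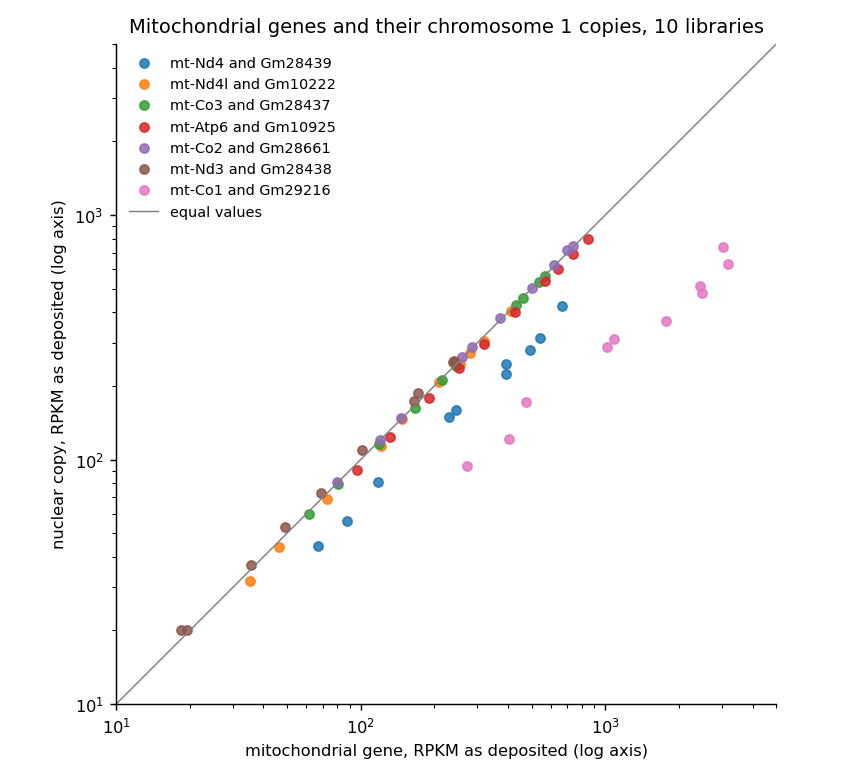
Deposited RPKM of 7 nuclear copies on chromosome 1 (y, log axis) against that of the mitochondrial gene they match (x, log axis), 1 point per library and gene, 10 libraries. Points of *mt-Co3*, *mt-Co2*, *mt-Nd3*, *mt-Nd4l* and *mt-Atp6* lie on or near the line of equal values, and those of *mt-Nd4* and *mt-Co1* lie below it at ratios down to 0.568 and 0.191.

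Nuclear genes whose products serve the same functions were counted for comparison. They were 10 lists with 230 genes in all, the nuclear subunits of complexes I to IV and ATP synthase, factors of mitochondrial transcription and RNA processing, translation factors, aminoacyl-tRNA synthetases, mitoribosomal proteins and regulators of biogenesis. For KO against rescue, 0 of the 229 tested were called with limma, against 1.69% of all 16866 genes. An unadjusted p under 0.05 was found for 10 of them, beside 1482 of all 16866 genes. The median log2 change of the 229 was -0.05, beside -0.03 over all genes. *Tfam*, which packages mitochondrial DNA and starts its transcription, was at 0.733 ± 0.167 in KO and 0.754 ± 0.165 in rescue (SD, n = 4 each), and *Polrmt*, the mitochondrial RNA polymerase, at 1.55 ± 0.366 and 1.38 ± 0.126. *Ppargc1a*, a coactivator of mitochondrial biogenesis, was at 0.0828 and 0.0919 and under the minimum level. By list, 0 of 36 complex I, 0 of 4 complex II, 0 of 9 complex III, 0 of 11 complex IV and 0 of 17 ATP synthase subunits were called, and 0 of 77 mitoribosomal proteins.

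Between the clones, 27 of the 229 nuclear genes were called, 20 higher and 7 lower in the exon 6 clone, which is 11.8% against 13.6% of all genes. Among those called were *Mrpl39*, a protein of the large mitoribosomal subunit (log2 difference of -0.93), *Hsd17b10*, a subunit of the enzyme that cuts the 5′ ends of mitochondrial tRNAs (0.85), *Atp5d* of ATP synthase (0.83) and *Mrpl34* of the mitoribosome (0.75). Of the 36 complex I subunits 4 were called, and of the 77 mitoribosomal proteins 12.

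The dependence of the medians on the scaling is laid out by gene type in the plot of medians under each scaling. The mRNA median moved from -0.12 to 1.45 on the log2 scale over the scalings tried, and the median of all genes moved with it from -0.03 to 1.10. Relative to the median of all genes, the mRNA median was -0.09 as reported, 0.18 with the RPKM as deposited and 0.26 with quantile normalization. The rRNA median was -0.43 relative to all genes as reported, 0.06 with the RPKM as deposited and 0.09 with quantile normalization. The tRNA median was -0.24 relative to all genes as reported, 0.07 with the RPKM as deposited and -0.24 with quantile normalization. The share of satellite and ribosomal entries in the sums behind these scalings differed between libraries. Leaving 4 such entries (Gm10800, Gm10801, Gm26917 and Gm42418) out of the nuclear protein-coding sum, an alternative chosen after the data had been seen, brought the mRNA median from 1.45 to 0.70 and the number of members called from 29 to 1, while 8.18% of all genes were called.

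**Figure D5:**
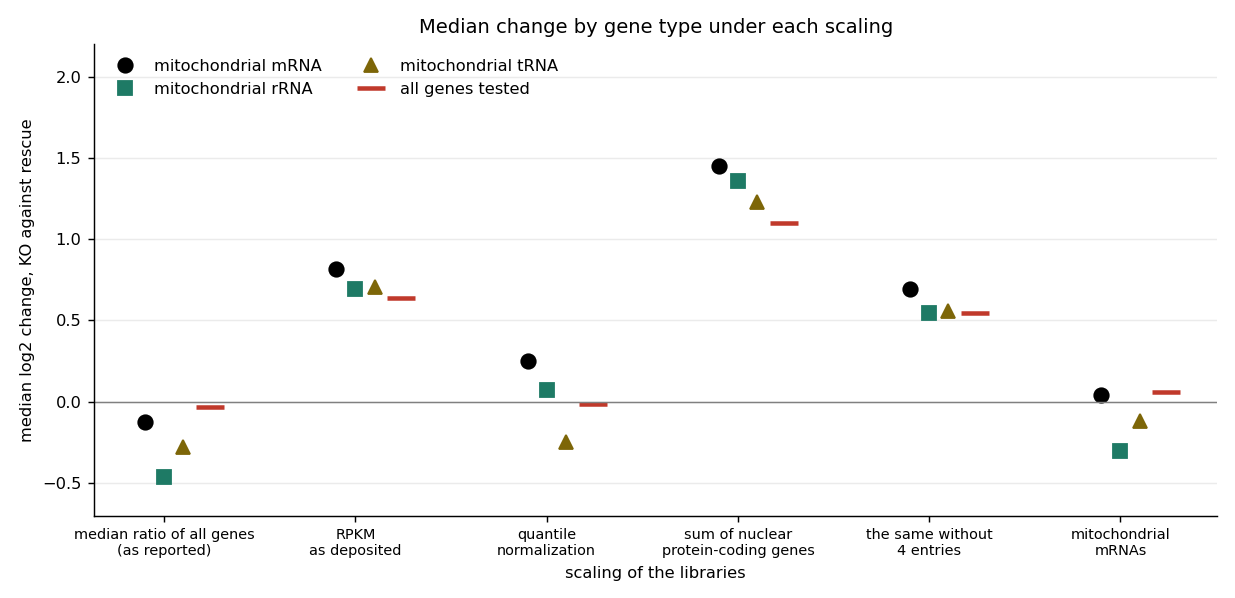
Median log2 change, KO against rescue, of the mitochondrial mRNA, rRNA and tRNA genes and of all genes tested (y axis) under 6 scalings of the libraries (x axis). The medians of the mitochondrial genes lie below 0 as reported, between 0.69 and 0.82 with the RPKM as deposited and between 1.23 and 1.45 with the nuclear protein-coding sum, and the median of all genes moves along.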

How the data were processed

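RNA of 10 libraries had been extracted with RNeasy, chemically fragmented and made into libraries with the Ovation Human FFPE system. Per the study's methods, adapters were trimmed with cutadapt, reads were mapped to mm10 with segemehl and annotated with rnacounter against an earlier GENCODE release than M21, which was used here for symbols, coordinates and sequences. The submitters' processing notes also name Picard 1.89. The values deposited by the authors are RPKM, a read number scaled by gene length and library total, in 1 table. How reads with several locations and strand were handled is not given in the sources used here. Groups were taken from the sample labels, which do not say whether replicates were separate cultures, so the p-values measure the spread between these samples. Columns of no sample numbered 0.

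To rescale a library, its RPKM were divided by 1 factor, the median over genes of its ratio to their geometric mean, from 8523 genes (mean of 1 RPKM or more, none at 0). Libraries 2 and 3 of the exon 6 groups were averaged. Genes whose mean reached 0.1 were tested as log2(RPKM + 0.5) with limma 3.58.1 in R 4.3.3 (lmFit, eBayes with a trend, clone as covariate, 2-sided, Benjamini-Hochberg adjustment, threshold 0.05). The pseudocount understates changes of low genes. Only the limma fit of KO against rescue was run on simulated data, drawn around the rescaled and averaged levels with equal noise for all genes. It called 100 of 100 genes changed by 1 on the log2 scale, 100 of 100 changed by 2 and 7 of 17343 left unchanged. The rescaling and the averaging of technical libraries were not tested in this way. The share of a library total is RPKM times exon length summed over the members. Copies were found from GENCODE M21 transcripts by shared 31-base stretches with Biopython 1.88, and 44585 of 45232 identifiers matched that annotation. The members, the nuclear lists and the alternatives were chosen with earlier results of these data known. Single values are given for all mRNA and rRNA members, the 5 tRNAs highest in level and any called, for the 5 highest nuclear copies and for up to 5 called nuclear genes, of which 1 is not reported here. *mt-Tm* and the tRNAs named as lowest or as ends of a range were chosen after their values were seen. Same-numbered KO and rescue replicates were compared because the labels number them. Deviations from the group means of their clone correlated at 0.477 (exon 4) and 0.360 (exon 6) over 7550 genes. Alternatives were other pseudocounts, minimum levels and scalings, technical libraries kept separate or left out, a replicate block, limma without a trend and leaving out each replicate.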

Additional observations from a re-analysis of the deposited data

Results flagged for a closer look

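The level of *mt-Tl2*, the leucine tRNA gene, in KO exon 4 replicate 2 was flagged because it lay far from the other KO replicates. It was 55.6 rescaled RPKM there, against 5.60, 5.87 and 7.82 in the other 3. The gap, as a share of the whole range, exceeded the 95% limit of Dixon's test for 4 samples. This was 1 of 44 groups of 4 tested, of which chance flags about 5%. The test took the KO replicates of both clones as 1 group. In the exon 4 clone itself, the rescue replicates were at 68.4 and 66.2, and the other KO replicate was at 5.60.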

How the results depend on the processing

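Scaling moved the results most. With the RPKM as deposited, the medians by gene type were 0.82 (mRNA), 0.69 (rRNA) and 0.70 (tRNA). There, 10 of 36 members were called within the exon 6 clone, all higher in KO, beside 61.7% of all genes, and 3 between the clones, beside 16.8% (*mt-Cytb*, *mt-Ta* and *mt-Tw*, higher in exon 6), and *mt-Tg* differed by 0.23 between the clones. With quantile normalization the mRNA and rRNA medians were 0.25 and 0.075, while the tRNA median stayed at -0.25. With the nuclear protein-coding sum the medians were 1.45, 1.36 and 1.23, 29 members were called for KO against rescue and 0 between the clones, and these log2 changes became positive and passed the threshold: *mt-Rnr1* 1.37, *mt-Rnr2* 1.35, *mt-Nd1* 1.50, *mt-Nd2* 1.20, *mt-Co1* 1.53, *mt-Co2* 1.62, *mt-Atp8* 1.18, *mt-Atp6* 1.56, *mt-Nd4l* 1.45, *mt-Nd4* 1.38, *mt-Nd5* 1.37, *mt-Nd6* 1.34, *mt-Cytb* 1.38, *mt-Ts1* 1.40, *mt-Te* 1.36, *mt-Tt* 1.42 and *mt-Tg* 1.08. Under that scaling, 12730 of 17010 genes were called for KO against rescue, and 7.78% of all genes between the clones. The clone difference of *mt-Tg* was 0.26 and the exon 6 change of *mt-Tl2* 0.59. Without the 4 satellite or ribosomal entries, that scaling gave medians of 0.70, 0.55 and 0.56. It gave 1 call for KO against rescue (*mt-Tq*, higher) and 0 between the clones, beside 8.18% and 10% of all genes. With the mitochondrial mRNAs as the scale, 0 members were called between the clones, beside 1.82% of all genes. With the replicate block added, 1 was called for KO against rescue (*mt-Tl2*, lower), beside 1.97%.

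The count between the clones was also 0 with no minimum level (beside 2.22% of all genes) and with technical libraries kept separate (17.6%). It was 0 as well with library 3 (10.5%) or library 2 (12.7%) left out. Within the exon 6 clone the count was 0 with library 3 or library 2 left out, beside 0.463% and 0.903% of all genes. Leaving out 1 replicate gave 0 to 1 calls for KO against rescue, 0 to 5 between the clones and 0 to 0 within the exon 6 clone. Between the clones, 5.89% to 17.9% of all genes were called in these fits. For KO against rescue, few genes of any kind were called in these fits, and within the exon 6 clone few or none. The 0 calls within the exon 6 clone therefore say nothing about the members in particular. Where leaving out a replicate left 1 sample in an arm, that sample is assumed to vary like the other groups. Relative to genes of known length, the mitochondrial share of a library had a median of 1.61%, against 0.747% of the library total. Nuclear genes with any shared 31-base stretch, not all of them copies, numbered 20 in the table. Of these 16 were tested, and 2 were called for KO against rescue, beside 1.69% of all genes. Gm13339 was lower in KO (log2 change of -0.97). *Cep295*, a protein-coding gene with 0.0243% of its stretches shared, was higher (0.59). Between the clones 4 were called (Gm13339, Gm4076, Gm11407 and Gm11408, lower in exon 6), beside 13.6%. The block gave an adjusted p of 0.0901 for Gm13339 in limma, so that this call was lost.

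Pairing same-numbered samples with a replicate block changed no call of a member at the scaling used in the report: 0 of 37 members for KO against rescue (lowest adjusted p = 0.142 in limma), 0 for the interaction (0.665), 0 within exon 4 (0.425) and 1, *mt-Tl2*, within exon 6 (0.0258). The clone difference could not be fitted with the block. The libraries left out or added in this section, library 2 and the 4 entries among them, include alternatives chosen after the data had been seen. The causes of these differences were not tested. Depth is unknown, and no value at or near 0 has a counting limit.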
